A study of Homo sapiens with 2 samples.

Results

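The BCL2 family decides whether the outer mitochondrial membrane stays intact. Survival members such as BCL-XL, MCL-1 and BCL-w hold the pore-forming effectors BAX and BAK in check, and BH3-only members such as BIM, BID, PUMA, NOXA and BIK relieve that restraint or switch the effectors on. Once BAX and BAK open the membrane, cytochrome c leaves the mitochondria and caspases are activated. Epithelial cancers commonly depend on BCL-XL and MCL-1 for survival.

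The genes described here are 10 of this family, taken by exact match to the gene name in the deposited transcript table: the survival genes BCL2L1, MCL1 and BCL2L2, the effector genes BAX and BAK1, and the BH3-only genes BID, BIK, BBC3, PMAIP1 and BCL2L11. All 10 were found, with 82 listed transcripts, among 24124 genes in all. Each had at least 1 RPKM (reads per unit of transcript length and library size, summed over the transcripts of a gene) in one or both libraries, as did 12471 genes.

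The RNA came from the established cell line SAS, a human oral cancer line, with 1 sample per group. The ASC sample stably carried the lentiviral vector pLKO.AS2 with the sequence of ASC, the inflammasome adaptor encoded by PYCARD, and the control sample carried pLKO.AS2 without it. Both were kept in DMEM with 10% FBS, 200 μg/ml G418 and 2 μg/ml puromycin, so both lines were under drug selection. The labels do not say whether either line is 1 clone or a pool. The comparison addresses which genes differ in SAS cells with added ASC.

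The libraries held 31426491 (ASC) and 31289581 (control) listed reads. PYCARD stood at 267 against 1.36 RPKM. All 8 squamous epithelial markers passed 1 RPKM in either library, with a summed level of 3223 against 2537 RPKM. They did not move together. KRT8 and KRT18, keratins also found in simple epithelia, stood at 1136 against 763 and 1363 against 967 RPKM. KRT14 at 82.3 against 61.2 and CDH1 at 82.6 against 65.6 were higher as well. EPCAM stood at 193 RPKM in both libraries. KRT5 at 311 against 421, KRT6A at 8.13 against 11.5 and TP63 at 46.0 against 54.5 were lower. The 6 fibroblast and 5 leukocyte markers were all under 1 RPKM or without a line in the table, with summed levels of 0.484 against 0.248 and 0.446 against 0.322 RPKM. Of 3 endothelial markers only CDH5 passed 1 RPKM, and their summed level was 2.84 against 2.13 RPKM. The part of these marker differences in the results below was not tested. With 1 library per group, the differences below have no replicate check, and no test between conditions was possible. In each pair of values below, the ASC library comes first and the control library follows.

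Several of these genes make opposing proteins from alternative splice forms, and the bases at the splice junctions show what separates them. In each line below, from GENCODE release 29 (hg38), the last 30 bases before a join are in lower case and the first 30 bases after it are in capitals, read 5′ to 3′ along the transcript. The BCL2L1 pair is shown because the long form, BCL-XL, protects cells and the short form, BCL-XS, promotes death.
BCL2L1-201, long form, from base 31721655 to base 31666086 of chromosome 20: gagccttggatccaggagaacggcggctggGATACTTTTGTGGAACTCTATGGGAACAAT
BCL2L1-202, short form, from base 31721844 to base 31666086: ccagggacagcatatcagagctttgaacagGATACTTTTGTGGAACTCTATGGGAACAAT
Both forms enter the same final exon, but the short form leaves the preceding exon earlier. It thereby lacks 189 coding bases, or 63 codons, which hold the BH1 and BH2 regions that form the groove for BH3 domains. Those 189 bases lie at chr20:31721655-31721843 on the minus strand.
BCL2L1 stretch of the long form only: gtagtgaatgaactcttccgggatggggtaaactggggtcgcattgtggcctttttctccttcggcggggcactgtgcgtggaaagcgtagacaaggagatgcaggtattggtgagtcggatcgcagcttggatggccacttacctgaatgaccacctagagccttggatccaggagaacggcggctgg

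The MCL1 joins are shown for the same reason: the full form protects cells, while the form that skips the middle exon is 79 codons shorter, lacks the membrane anchor and acts as a death protein.
MCL1-202, full form, exon 1 to exon 2, from base 150578843 to base 150578491 of chromosome 1: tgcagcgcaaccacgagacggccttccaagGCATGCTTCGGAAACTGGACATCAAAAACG
MCL1-201, skipped form, exon 1 to the last exon, from base 150578843 to base 150577491: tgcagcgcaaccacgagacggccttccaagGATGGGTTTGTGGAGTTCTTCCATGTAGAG
The BCL2L11 lines separate BIM-EL, its longest common form, from BIM-L. The read-through in BIM-EL keeps 180 bases (60 codons) at chr2:111123870-111124049 on the plus strand, a stretch known for ERK phosphorylation sites that mark BIM-EL for degradation.
BCL2L11-206, BIM-EL, read through without a join after base 111123869 of chromosome 2: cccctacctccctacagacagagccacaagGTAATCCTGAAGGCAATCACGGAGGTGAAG
BCL2L11-201, BIM-L, from base 111123869 to base 111124050: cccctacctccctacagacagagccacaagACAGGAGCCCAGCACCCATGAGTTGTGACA

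All 10 genes lay within 2-fold of equal between the libraries, 8 of them higher in the ASC library and 2 lower. The log2 ratio of ASC over control, with a pseudocount of 1 RPKM added to both values, had a median of 0.19 over the 10 genes and ranged from -0.38 for BCL2L11 to 0.59 for BCL2L1. Among all compared genes the median was 0.01, 52% lay above 0 and 0.882% were past 2-fold, 0.617% higher and 0.265% lower. BCL2L1 alone passed 1.5-fold, barely, while 4.19% of all compared genes did, 2.38% on the higher and 1.81% on the lower side. That call held in 2 of 8 alternative settings, and on the CPM and TMM scales BCL2L1 stood at 0.58 in both, under the threshold, while BCL2L11 passed it on the lower side at -0.67 and -0.66. The share of all genes past 1.5-fold was not counted on those 2 scales. Past 2-fold they called more genes than RPKM did, 186 of 13539 by CPM and 185 of 13537 by TMM. The ratio of estimated reads, scaled by the listed total of each library, was given an exact (Clopper-Pearson) 95% interval that covers counting error only. These intervals lay wholly above 0 for 7 of the 10 genes, wholly below 0 for BCL2L11, and spanned 0 for BAX and BIK. Over all compared genes 28.5% had intervals above 0 and 27% below, 55.5% together, and such intervals narrow as the reads of a gene increase.

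**Figure D1:**
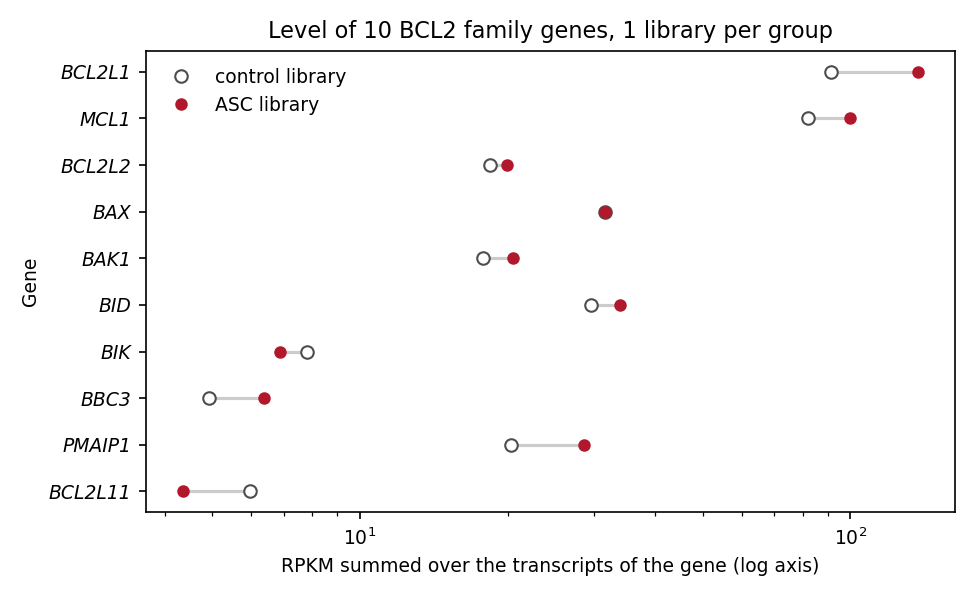
RPKM of the 10 genes on a log axis, open circles for the control library and filled circles for the ASC library. BCL2L1 and MCL1 were the most abundant in both libraries, and BIK and BCL2L11 are the only genes whose filled circle lies to the left.

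The survival genes were all higher in the ASC library, BCL2L1 by the most. BCL2L1 (ENSG00000171552.12, chr20:31664452-31723989, minus strand), which encodes BCL-XL, stood at 137 against 91.2 RPKM, 1.51-fold higher, with 11767 against 7827 estimated reads. Its log2 ratio of reads was 0.58 (95% interval 0.54 to 0.62). Of the compared genes, 2.37% had a log2 ratio as high or higher. MCL1 (ENSG00000143384.12, chr1:150574551-150579738, minus strand), a short-lived survival protein, stood at 99.9 against 81.9 RPKM. By reads, the log2 ratio was 0.34 (0.30 to 0.38). BCL2L2 (ENSG00000129473.9, chr14:23298790-23311759, plus strand), which encodes BCL-w, stood at 19.9 against 18.4 RPKM. On the scale of reads the log2 ratio was 0.11 (0.02 to 0.19). The readthrough gene BCL2L2-PABPN1 overlaps it on the same strand and went the other way, at 12.2 against 15.3 RPKM. Reads from sequence that both genes hold cannot be assigned to either with certainty.

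Summed over the 3 survival genes, the level was 257 against 192 RPKM, or 1.34-fold. The 2 effector genes summed to 52.1 against 49.4 RPKM, and the 5 BH3-only genes to 80.1 against 68.6 RPKM. The summed survival level was thus 4.94 times the effector level with ASC and 3.87 times in the control. Against the BH3-only genes the same ratios were 3.21 and 2.79. Of the survival genes, BCL2L1 was higher with ASC by 46.2 RPKM, MCL1 by 17.97 and BCL2L2 by 1.54. The effector sum includes retained-intron and nonsense-mediated decay transcripts, which held 22.4% of BAX RPKM with ASC and 34.8% in the control. Over protein-coding transcripts only, the log2 ratio of BAX was 0.24. The ratios of summed levels were not computed without BCL2L1 or for protein-coding transcripts only. BCL2L1 stood at 1.38 times the MCL1 level with ASC and 1.11 times in the control.

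Most genes around BCL2L1 on chromosome 20 also stood higher in the ASC library. Of the 50 compared genes nearest to it, 38 lay above 0, with a median log2 ratio of 0.17, and 1 had a ratio as high as that of BCL2L1. After subtraction of this median the log2 ratio of BCL2L1 was 0.41. The flanking genes were mixed. TPX2, a spindle assembly factor, stood at 75.2 against 58.4 RPKM and PDRG1 at 17.5 against 13.8, whereas ID1, an inhibitor of differentiation, lay on the other side at 65.3 against 104 RPKM. HM13 and MCTS2P, next beyond ID1, had log2 ratios of 0.04 and -0.04, and TM9SF4, beyond PDRG1, had 0.10. Whether the stretch has a part in the BCL2L1 difference was not tested.

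**Figure D2:**
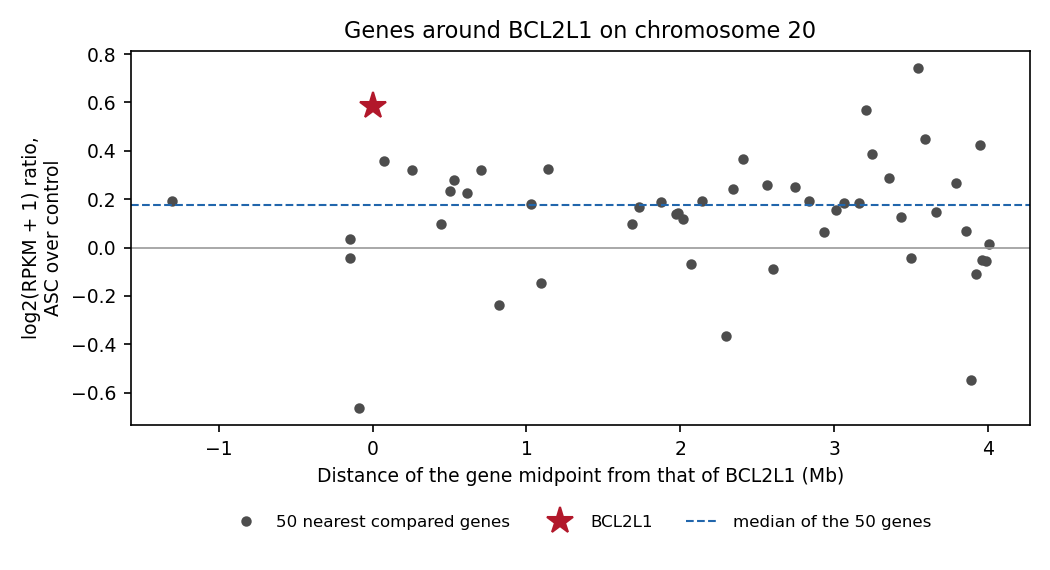
Log2 ratio of RPKM + 1 (ASC over control) of BCL2L1 (star) and its 50 nearest compared genes (points) by distance between gene midpoints in Mb. The dashed line is the median of the 50 genes, 0.17, and BCL2L1 lies above 49 of them.

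Around MCL1 on chromosome 1 the corresponding median was 0.04. ADAMTSL4, the nearest compared gene on one side, had a log2 ratio of 1.15, from 7.58 against 2.86 RPKM. Beyond it TARS2 and RPRD2 had ratios of -0.0036 and -0.06, and on the other side ENSA, GOLPH3L and CTSS had 0.12, -0.12 and 0.24. Near the other genes the medians of 50 neighbours lay between -0.01 and 0.09, except near BCL2L11.

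**Figure D3:**
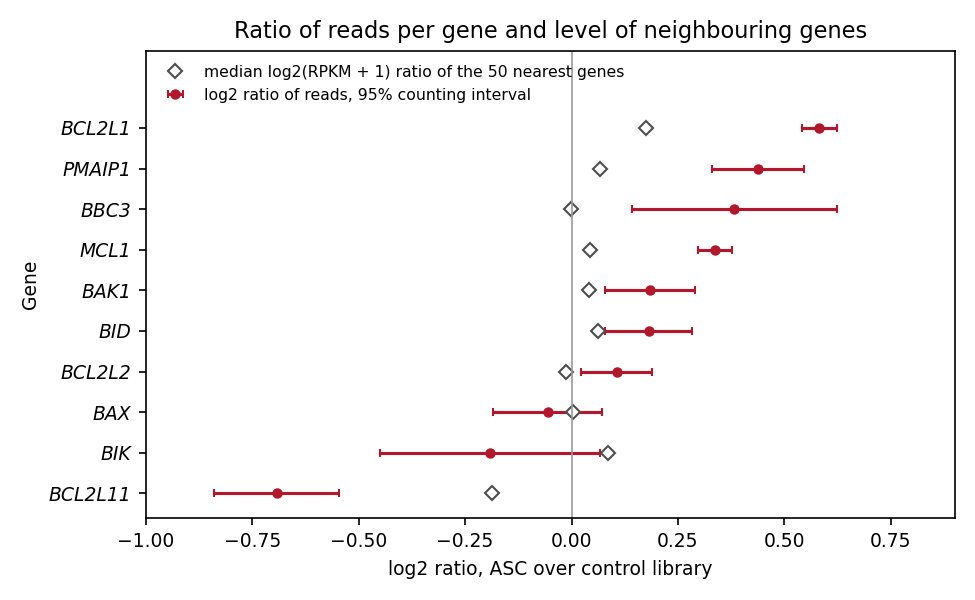
Log2 ratio of reads scaled to depth (filled points, bars for the 95% counting interval) of the 10 genes, with the median log2 ratio of RPKM + 1 of the 50 nearest genes as open diamonds. The intervals of BCL2L1 (0.54 to 0.62) and BCL2L11 (-0.84 to -0.55) lie on opposite sides of 0, and only near these 2 genes is the neighbour median beyond 0.1 in size.

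By transcript, the BCL2L1 difference lay mostly in the long form. The transcripts BCL2L1-201 and BCL2L1-203 carry the same 233 codons of BCL-XL and differ before the start codon. BCL2L1-201 (ENST00000307677.4) stood at 75.0 against 54.7 RPKM. BCL2L1-203 (ENST00000376062.6) stood at 42.8 against 22.8 RPKM. Together they made up 85.7% of BCL2L1 RPKM with ASC and 85.0% in the control, at 118 against 77.5 RPKM. The short form BCL2L1-202 (ENST00000376055.8, 170 codons) stood at 2.61 against 2.30 RPKM.

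The short form was a small part of BCL2L1 in both libraries. It made up 2.17% of the RPKM of long and short forms together with ASC and 2.89% in the control. By estimated reads these were 1.99% (exact binomial 95% interval 1.74 to 2.27) and 2.65% (2.29 to 3.04). The intervals cover counting error only and do not overlap, but their bounds of 2.27 and 2.29 are close. How often such share intervals fail to overlap over all genes was not counted, here or for MCL1 and BCL2L11 below.

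Within the long form, the share of BCL2L1-203 was larger with ASC and that of BCL2L1-201 smaller. The share of BCL2L1-203 in BCL2L1 RPKM was 31.2% against 25.0%, the largest shift in the gene, and that of BCL2L1-201 was 54.6% against 59.9%. Their log2 ratios of reads were 0.90 (0.82 to 0.97) and 0.44 (0.39 to 0.50). A model with an incomplete coding end, BCL2L1-205, held 8.97% against 8.24%. These transcripts share coding sequence, and the division of reads among them is an estimate whose error no interval here covers.

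For MCL1, the full coding form stood higher in the ASC library and the noncoding transcript did not. MCL1-202 (ENST00000369026.2, 350 codons) stood at 73.2 against 57.1 RPKM. The noncoding MCL1-203 (ENST00000464132.1) stood at 20.2 against 20.4 RPKM, and its share of 20.2% against 24.9% was the largest shift in the gene. MCL1-204 (197 codons) stood at 4.77 against 2.71 RPKM (617 against 352 reads). Its log2 ratio of reads was 0.80 (0.61 to 0.996).

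The skipped death form of MCL1 was rare in both libraries, and less abundant in each than the 197-codon MCL1-204. The role of the MCL1-204 product was not tested. MCL1-201 (ENST00000307940.3, 271 codons) stood at 1.75 against 1.73 RPKM (69.4 against 68.7 reads). It made up 2.34% of the RPKM of full and skipped forms together with ASC and 2.94% in the control. By reads these shares were 0.668% (0.520 to 0.845) and 0.852% (0.663 to 1.08), with overlapping intervals. The 197-codon form MCL1-204 went the other way, at 6.13% against 4.54% of the RPKM of itself and the full form. By reads its shares were 5.67% (5.25 to 6.13) and 4.20% (3.78 to 4.65), intervals that do not overlap. These intervals cover counting error only. They leave out the error of dividing estimated reads among overlapping MCL1 transcripts. The share of MCL1-202 was 3.53 percentage points larger by RPKM but 0.606 points larger by reads, and among protein-coding transcripts alone the difference was -0.97 points. For MCL1-203 the difference of -4.64 points by RPKM was -1.91 by reads.

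**Figure D4:**
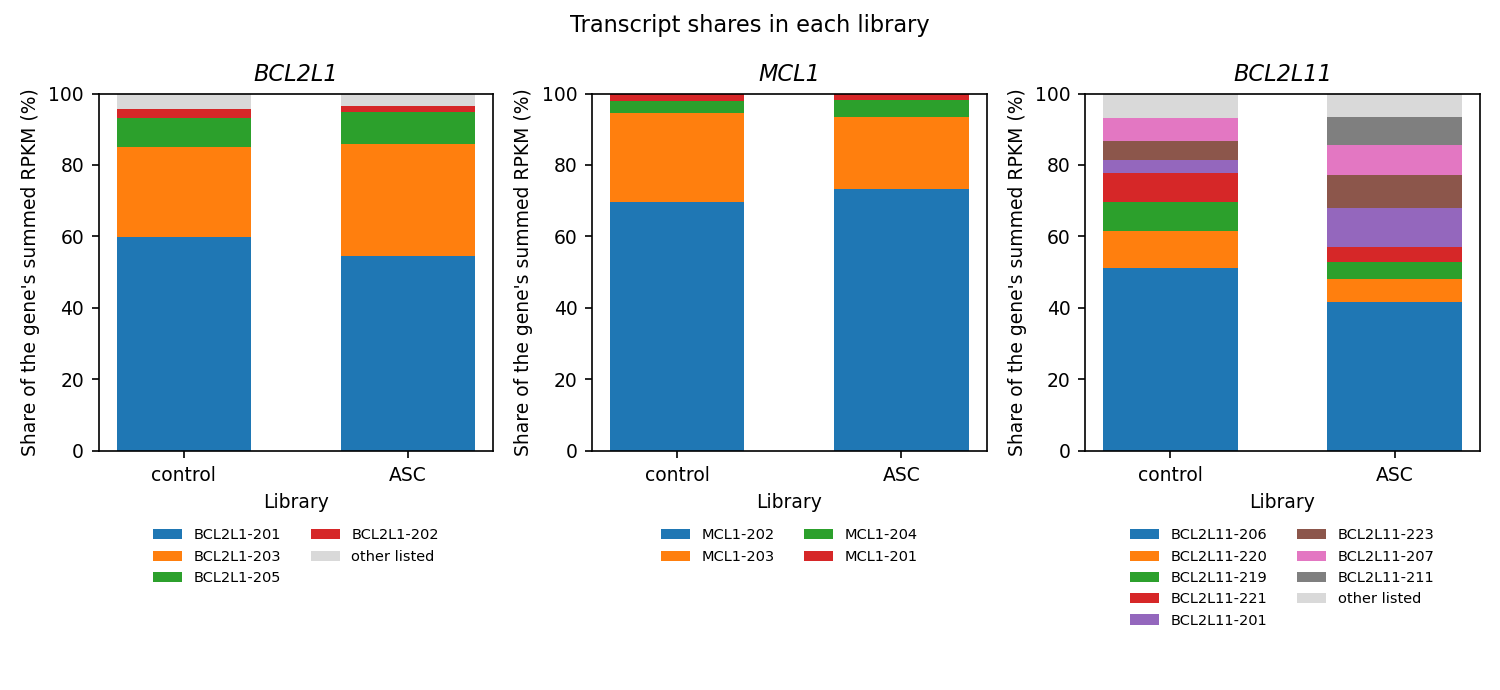
Share of each transcript in the summed RPKM of BCL2L1, MCL1 and BCL2L11, as stacked bars in percent for the control and ASC libraries. BCL2L1-203 widens from 25.0% to 31.2%, MCL1-203 narrows from 24.9% to 20.2%, and BCL2L11-206 narrows from 51.2% to 41.6%. By reads, which are not drawn, BCL2L11-206 held 55.9% in the control and 53.0% with ASC, with overlapping counting intervals.

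Of the effector genes, BAX had an equal total in both libraries and BAK1 a slightly higher one with ASC. Transcript shares moved more in BAX than in BAK1. BAX (ENSG00000087088.19, chr19:48954815-48961798, plus strand) stood at 31.6 RPKM in both libraries, with 977 against 1011 reads and a log2 ratio of reads of -0.06 (-0.18 to 0.07). Its main coding transcript, BAX-202 (192 codons, BAX alpha), stood at 19.1 against 15.2 RPKM. By reads, the log2 ratio was 0.32 (0.13 to 0.51). The retained-intron transcript BAX-211 stood at 3.74 against 7.44 RPKM (103 against 206 reads). On the scale of reads the log2 ratio was -1.01 (-1.36 to -0.66). Of the other retained-intron transcripts, BAX-207 stood at 1.33 against 1.65 RPKM and BAX-210 at 1.59 against 1.15. Retained-intron and nonsense-mediated decay transcripts of BAX made up 22.4% of its RPKM with ASC and 34.8% in the control. BAX-202 held 60.3% against 48.0%, a difference of 12.3 points that was 4.10 among protein-coding transcripts alone. Summed over protein-coding transcripts only, the log2 ratio of BAX was 0.24 in place of 0.00096.

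BAK1 (ENSG00000030110.12, chr6:33572547-33580293, minus strand) stood at 20.5 against 17.8 RPKM. Its log2 ratio of reads was 0.18 (0.08 to 0.29). Its main transcript BAK1-202 (211 codons) stood at 18.9 against 15.2 RPKM. BAK1-203, which has a shorter reading frame of 153 codons, stood at 1.24 against 2.23 RPKM (97.6 against 176 reads). Its share of BAK1 RPKM was 6.04% with ASC and 12.5% in the control. By the highest transcript alone the log2 ratio of BAK1 was 0.29, against 0.19 for the sum.

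**Figure D5:**
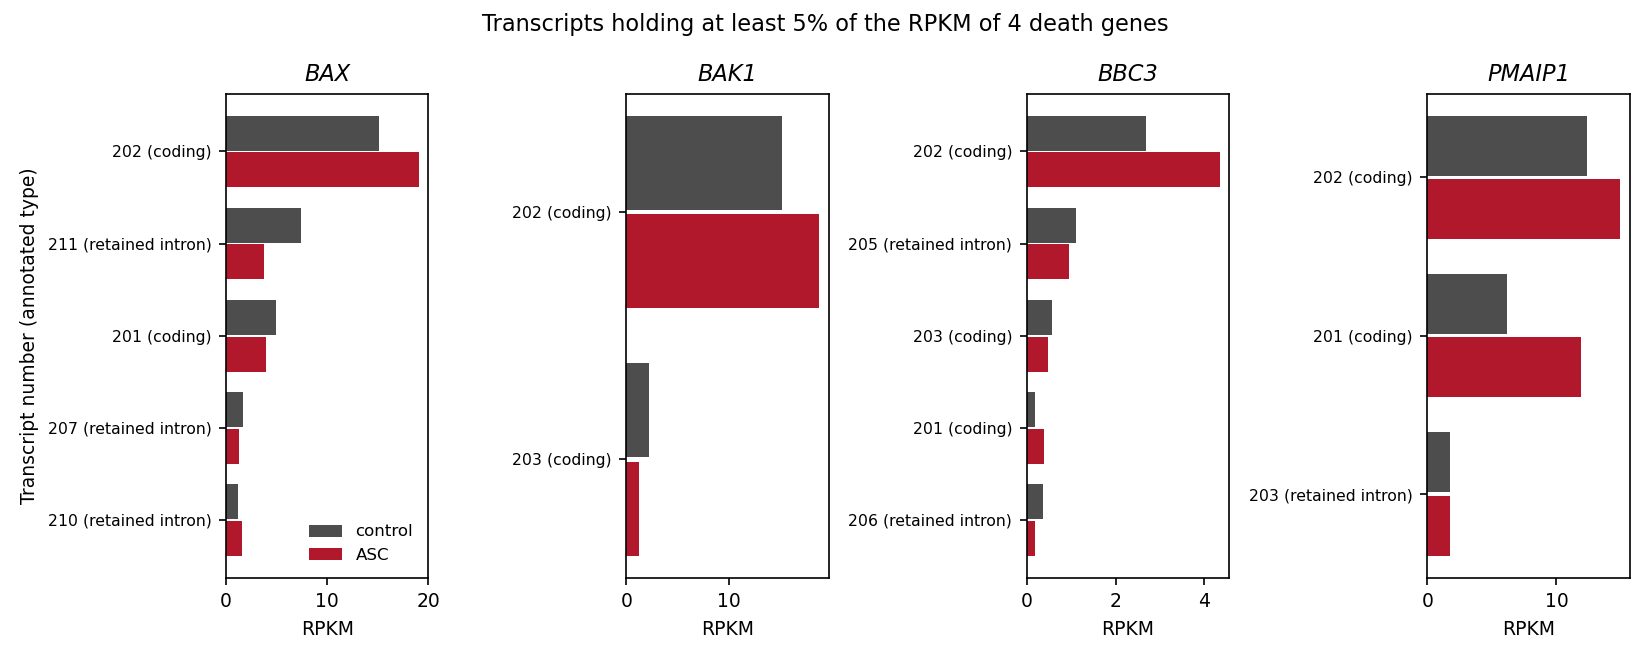
RPKM of the transcripts that hold at least 5% of BAX, BAK1, BBC3 or PMAIP1 in either library, as bars from 0 for the control (grey) and ASC (red) libraries. The main coding transcripts BAX-202, BAK1-202 and BBC3-202 are longer in red, while BAX-211 and BAK1-203 are longer in grey.

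Of the BH3-only genes, PMAIP1, BBC3 and BID were higher and BCL2L11 and BIK lower in the ASC library. PMAIP1 (ENSG00000141682.11, chr18:59899948-59904306, plus strand) encodes NOXA, which binds MCL-1 and promotes its degradation. It stood at 28.6 against 20.3 RPKM, 1.41-fold higher, with a log2 ratio of reads of 0.44 (0.33 to 0.55). PMAIP1-202, with the 54 codons of NOXA, stood at 14.9 against 12.4 RPKM. The longer frame PMAIP1-201 (136 codons) stood at 11.9 against 6.17 RPKM (537 against 278 reads), and its share was 41.7% against 30.3%. Taken from its most abundant transcript only, the log2 ratio of PMAIP1 was 0.25 rather than 0.47.

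BBC3 (ENSG00000105327.17, chr19:47220822-47232766, minus strand), the gene of the p53-induced PUMA, was among the less abundant, at 6.36 against 4.91 RPKM. It had 331 against 253 reads. By reads, the log2 ratio was 0.38 (0.14 to 0.62). BBC3-202 (131 codons) stood at 4.35 against 2.68 RPKM, and BBC3-203 (193 codons) at 0.478 against 0.572 RPKM. BBC3-203 had 31.3 against 37.6 reads, and its log2 ratio of reads, -0.30 (-1.03 to 0.42), had an interval that spanned 0. Retained-intron transcripts made up 18.1% of BBC3 RPKM with ASC and 29.9% in the control. The highest transcript alone gave BBC3 a log2 ratio of 0.54, against 0.32 for the sum.

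BID (ENSG00000015475.18, chr22:17734138-17774770, minus strand) is cut by caspase-8 and links death receptors to mitochondria. It stood at 33.9 against 29.6 RPKM. On the scale of reads the log2 ratio was 0.18 (0.08 to 0.28). Its 3 transcripts with the common 195-codon frame held 92.2% against 88.3% of BID RPKM, and the 99-codon frame 5.16% against 7.16%. BIK (ENSG00000100290.2, chr22:43110748-43129712, plus strand), whose protein acts at the endoplasmic reticulum, has 1 transcript and stood at 6.89 against 7.80 RPKM (234 against 266 reads). Its log2 ratio of reads was -0.19 (-0.45 to 0.07), so a difference was not detectable at this depth. The median of the 50 genes nearest to BIK was 0.09, and relative to it the log2 ratio of BIK was -0.24.

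BCL2L11 (ENSG00000153094.22, chr2:111119378-111168447, plus strand) encodes BIM, which binds all survival members, and was the gene with the lowest ratio of the 10. It stood at 4.35 against 5.97 RPKM, 1.37-fold lower, with 619 against 996 reads. By reads, the log2 ratio was -0.69 (-0.84 to -0.55), larger in size than the -0.38 from summed RPKM, and on the scale of CPM plus 1 it was -0.67. Of the compared genes, 6.05% had a ratio as low or lower on the RPKM scale. The 50 genes nearest to BCL2L11 were low as well, with 8 above 0 and a median of -0.19, and relative to it the log2 ratio was -0.20. Of those 50 genes, 10 had a ratio as low or lower. Their part in the BCL2L11 difference was not tested.

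Among the 23 listed BCL2L11 transcripts, BIM-EL and several others were lower in the ASC library, and BIM-L, on few reads, was higher. BCL2L11-206 (ENST00000393256.7, BIM-EL, 198 codons) stood at 1.81 against 3.06 RPKM (328 against 557 reads). On the scale of reads the log2 ratio was -0.77 (-0.97 to -0.57). The share of BIM-EL in BCL2L11 RPKM was 41.6% against 51.2%. By reads it was 53.0% (49.0 to 57.0) against 55.9% (52.8 to 59.0), with overlapping intervals. BCL2L11-201 (ENST00000308659.12, BIM-L, 138 codons) stood at 0.471 against 0.218 RPKM (25.6 against 11.9 reads). Its log2 ratio of reads had a wide interval, 1.11 (0.07 to 2.23). BIM-L made up 20.7% of the RPKM of BIM-EL and BIM-L together with ASC and 6.66% in the control. By reads these were 7.34% (4.85 to 10.6) and 2.11% (1.09 to 3.65), intervals that cover counting error only and do not overlap. The BIM-L model is 1522 bases long against 5086 for BIM-EL, and ends at base 111165048 against 111168447. The division of reads among these transcripts is an estimate whose error no interval here covers.

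Other BCL2L11 transcripts also rested on few reads, though several had more than BIM-L. BCL2L11-220, BCL2L11-219 and BCL2L11-221 each stood lower in the ASC library, with 51.2 against 110, 37.7 against 90.7 and 33.8 against 90.6 reads. BCL2L11-223 had 72.1 against 56.8 reads and BCL2L11-207 had 5.64 against 5.68. The nonsense-mediated decay transcript BCL2L11-211 had 14.1 reads in the ASC library and was listed at close to 0 in the control. By reads the share of BCL2L11-211 was 2.28 percentage points larger with ASC, in place of 7.61 by RPKM, and that of BIM-L 2.94 in place of 7.17. The noncoding gene MIR4435-2HG overlaps BCL2L11 on the opposite strand and stood at 67.1 against 52.6 RPKM. The labels name the TruSeq RNA Library Prep Kit v2, a kit that keeps no strand information, so reads of the overlap cannot be assigned to either gene.

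The genes differed in how far transcript shares moved. The share gained, summed over the transcripts that gained, was 23.2 percentage points in BCL2L11, 17.2 in BAX, 16.0 in BBC3 and 11.4 in PMAIP1. It was 7.48 points in BCL2L1, 6.79 in BAK1, 6.55 in BID, 4.999 in MCL1 and 0.733 in BCL2L2. Over the 11255 compared genes with more than 1 listed transcript the median was 7.95 points. Of them, 8.99% reached the BCL2L11 value, 17.3% that of BAX, 20% that of BBC3 and 33.9% that of PMAIP1. For BCL2L1, BAK1, BID, MCL1 and BCL2L2 these percentages were 52.8%, 56.6%, 57.9%, 67.7% and 94.9%. Over the 5711 of these with at least 1000 reads in each library the median was 5.59 points. The 4 members with the largest shifts were also the 4 with the fewest reads among those with several transcripts.

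Of these genes' transcripts, 29 reached 1 RPKM in one or both libraries. Of these 29, none was past 2-fold with the pseudocount of 1 RPKM, 20 lay above 0 and 9 below. Without a pseudocount, BAX-211 stood at a log2 ratio of reads of -1.01. BCL2L1-206 was 2.13-fold higher by RPKM, at 1.20 against 0.563, on 16.3 against 7.67 reads. Among all 34527 such transcripts 2.32% were past 2-fold, 1.26% higher and 1.06% lower, and 50.1% lay above 0.

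Other members of the BCL2 family were also within 2-fold. Of 13 further members on the list, 7 were compared, 6 of them above 0 with a median log2 ratio of 0.17. BNIP3L, a mitophagy receptor, stood at 19.9 against 14.5 RPKM and BAD, a BH3-only protein held inactive by survival kinases, at 49.6 against 40.4. BCL2L12 stood at 28.9 against 28.0 and the BAX relative BOK at 15.6 against 16.6 RPKM. BCL2 itself was under the limit at 0.559 against 0.840 RPKM.

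Downstream of the mitochondria, 10 of 14 compared genes of the apoptosome and its inhibitors lay above 0, none past 2-fold, with a median of 0.09. CYCS, the gene of cytochrome c, stood at 85.1 against 66.5 RPKM and the initiator caspase gene CASP9 at 2.34 against 1.65. HTRA2, a mitochondrial protease released in apoptosis, stood at 15.3 against 21.1 and BIRC6 at 15.5 against 18.2 RPKM. Of 13 outer membrane and mitochondrial dynamics genes, 10 lay above 0 and none was past 2-fold, with a median of 0.08. TOMM22, an import receptor, and DNM1L, the fission GTPase, had log2 ratios of 0.21 and 0.20. MTCH2, a receptor for BID, had -0.08 and the inner membrane fusion gene OPA1 -0.29. By reads the ratio of OPA1 was -0.04 (-0.09 to 0.0054) and that of TOMM22 0.08 (-0.0059 to 0.17), so both intervals, like that of MTCH2 (-0.17 to 0.0070), spanned 0.

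In the death receptor arm, 5 of 11 compared genes lay above 0 and 6 below, none past 2-fold, with a median of -0.03. The receptor genes TNFRSF10A and FAS stood at 12.8 against 10.7 and 7.11 against 9.59 RPKM. The adaptor gene FADD stood at 25.3 against 22.8 and CASP10 at 0.995 against 1.47 RPKM, where CASP10 had 84 against 124 reads.

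Genes that act on the family from upstream were close too. Of 14 transcription factor genes, 9 lay above 0, none past 2-fold, with a median of 0.06. JUN and STAT3 had log2 ratios of 0.34 and 0.31, and TP73 and FOXO1, whose proteins can activate BH3-only genes, had -0.51 and -0.35. Of 11 compared genes on MCL-1 and BIM stability, 7 lay above 0, none past 2-fold, with a median of 0.10. USP9X, a deubiquitinase of MCL-1, stood at 64.4 against 52.7 RPKM and the phosphatase gene PPP2CA at 87.2 against 71.9, while PPP2R1A and USP13 had log2 ratios of -0.09 and -0.08. Of 21 compared regulators of BCL2L1 and MCL1 splicing, 9 lay above 0 and 12 below, none past 2-fold, with a median of -0.06. HNRNPH1 stood at 267 against 324 RPKM, HNRNPA1 at 973 against 1176, SRSF9 at 151 against 136 and RBM10 at 21.4 against 19.0.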

How the data were processed

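RNA sequencing of poly(A) RNA was analysed from 1 ASC and 1 control library of SAS cells, made with the TruSeq RNA Library Prep Kit v2, per the labels' protocols. The deposited table holds estimated counts of reads per transcript, given with fractions, together with RPKM, per the file headers. Per the submitters' processing notes, hg38 was the build. For the aligner and quantifier, no name is given in the sources used here. All 82 transcripts of the 10 genes matched GENCODE release 29 by identifier and start, with stops 1 base past the annotated end, and that annotation gave coding regions and types. Of 285 gene names turned into dates, 284 were restored.

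RPKM was summed per gene, genes reaching 1 RPKM in one or both libraries were compared, and log2 ratios used a pseudocount of 1 RPKM, which understates differences of low genes. Intervals used rounded estimated counts and listed reads, and shares used RPKM. The members and lists were chosen with earlier results of these data known. Named beyond the 10 genes are the 2 highest and 2 lowest of each of 7 lists, genes past 2-fold in them (none), transcripts of at least 5% of a gene, the 3 genes flanking BCL2L1 and MCL1 on each side, and, chosen after their values were seen, BCL2, CDH5 and overlapping genes. Of the lists, BCL2A1 and RBM11 have no line in the table used here. Alternatives were other pseudocounts, filters and thresholds, median centring, CPM, TMM scaling (edgeR 4.0.16), the highest transcript, coding transcripts only and subtraction of neighbouring genes. The procedure was tested on simulated data. Python 3.11.15 with pandas 2.3.3 and scipy 1.17.1 was used.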

Additional observations from a re-analysis of the deposited data

How the results depend on the processing

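Across 8 alternatives for each gene, 9 of the 10 genes kept the sign of their log2 ratio in all 8. BAX did not, at -0.0091 after median centring, -0.051 with TMM scaling, -0.054 with CPM and -0.0024 after subtraction of neighbouring genes, against 0.31 by the highest transcript. The main value of BAX was 0.00096, smaller than the subtracted medians of 0.010 over all compared genes and 0.0034 over its neighbours. Its highest transcript is BAX-202 alone. What lies behind the difference between BAX transcripts was not tested. BCL2L1 ranged from 0.41 to 0.59, MCL1 from 0.24 to 0.37, and BCL2L11 from -0.67 to -0.20.

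No gene of the 10 was past 2-fold under other pseudocounts, filters or scalings, and at a threshold of 1.5-fold 1 was, BCL2L1 on the RPKM scale. It passed in 2 of 8 alternatives, and with TMM scaling and CPM BCL2L11 passed on the lower side in its place. For those scalings the share of all genes past 1.5-fold was not counted. Of all genes, 110 were past 2-fold, 287 with a pseudocount of 0.1 RPKM, 43 with 3 RPKM, 185 with TMM scaling and 186 with CPM, both over genes of at least 1 CPM, and 523 were past 1.5-fold. The median of the death receptor list changed sign to 0.048 with a filter at 5 RPKM, which left 7 genes. The share difference of MCL1-202 was -0.97 points among coding transcripts. No paired analysis was possible because each group has 1 library. The labels give no batch, and any difference between the library preparations cannot be told apart from that between the groups. Depth limits transcripts of under about 100 reads, such as most of BCL2L11.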
